A study of Mus musculus with 10 samples.

Results

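Molecular chaperones are the proteins that fold other proteins. Their transcripts were examined in the lungs of 2-week-old mice, exposed to cigarette smoke in daily sessions or kept in filtered air. The 36 genes listed were 13 of the cytosol, 3 of mitochondria, 15 of the endoplasmic reticulum and 5 regulators that switch chaperone genes on. A gene was taken up when a probe set was annotated with its symbol alone, and the probe set with the highest mean over the 10 arrays stood for it. This gave 34 genes, all of them among the 13382 genes tested. Hsp90ab1 and Hsf1 were not analysed here.

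Lung RNA of C57BL/6J mice was hybridised to Affymetrix Mouse 430 2.0 arrays, with 1 mouse per array. Smoke exposure of 6 pups, together with their mother, began at an age of 1 day in a smoke chamber. Daily sessions took 1 hour during the first 7 days and 2 hours during the following 7, with 90 mg of particulates in each cubic metre of air. The other 4 pups were unexposed controls of the same strain, housed in filtered air apart from the exposed animals. All mice were 2 weeks old, their sex is recorded as unknown, and neither litter nor processing batch is given, so every p below rests on how far these single arrays lay apart. Values are quantile-normalised log2 intensities of a probe set. They can be compared between arrays but not between probe sets, and in whole lung fewer cells of a type and less RNA per cell cannot be told apart.

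Chaperones hold unfolded proteins, use ATP to release them for another attempt at folding, and pass those that fail to degradation. In the cytosol, heat and oxidised proteins free heat shock factor 1, which binds heat shock elements before genes such as Hspa1a and Hspa1b. In the reticulum, unfolded proteins free the sensors ATF6, IRE1 and PERK from the chaperone BiP, and ATF6, spliced XBP1 and ATF4 then act on chaperone promoters, a programme known as the unfolded protein response. Cells of the lung that secrete surfactant proteins and collagen depend on this reticulum machinery.

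Promoters of the members were read from RefSeq (GRCm38.p6), as the 250 bases before each annotated start, and 28 of the 36 genes had such a window. The windows of both strands were searched for the ER stress response element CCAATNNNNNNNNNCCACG, to which ATF6 binds with NF-Y. Of all 32851 windows of this length, 37 (0.113%) held it, and 6 of the 13 reticulum genes with a window did: Calr, Canx, Dnajc3, Hsp90b1, Hspa5 and Pdia6. Shares of all are counted over windows and those of members over genes, and no test compared them. A related element, ATTGGNCCACG, was in 10 windows (0.0304%), among members only that of Herpud1, and the XBP1 and ATF6 element TGACGTGG was in 185 windows (0.563%) and in 0 members. These elements share the letters CCACG, or CGTGG on the other strand, so that matches to them can overlap. The heat shock element was searched as TTCNNGAANNTTC, whose repeats also read on the other strand, and was in 153 windows (0.466%). Among members it was found in the neighbouring genes Hspd1 and Hspe1 only, which read the same 2 overlapping matches from opposite strands. Of the 13 cytosolic genes, 10 had a window and 0 held an exact match. Other forms of the element, and bases farther from the start, were not searched. These 5 windows are shown because their genes carry the elements, and the changes of these genes, none of which passed the test, are given below. They lie at chr2:34771840-34772089 on the plus strand (Hspa5), chr10:86705445-86705694 on the minus strand (Hsp90b1), chr8:84846932-84847181 on the minus strand (Calr), chr12:17266339-17266588 on the plus strand (Pdia6) and chr1:55087898-55088147 on the plus strand (Hspe1). Capitals mark the ER stress response element, on either strand, in the first 4 and the heat shock element in the last.
Hspa5: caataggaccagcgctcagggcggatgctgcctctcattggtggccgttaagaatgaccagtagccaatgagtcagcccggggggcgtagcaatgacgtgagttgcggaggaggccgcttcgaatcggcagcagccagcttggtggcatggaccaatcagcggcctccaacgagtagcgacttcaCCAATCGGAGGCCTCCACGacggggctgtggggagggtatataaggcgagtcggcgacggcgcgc
Hsp90b1: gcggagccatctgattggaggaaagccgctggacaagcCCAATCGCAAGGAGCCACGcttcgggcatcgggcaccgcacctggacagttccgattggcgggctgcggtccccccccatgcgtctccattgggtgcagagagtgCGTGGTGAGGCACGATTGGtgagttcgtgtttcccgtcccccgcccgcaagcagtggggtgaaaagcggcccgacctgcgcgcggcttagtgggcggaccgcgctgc
Calr: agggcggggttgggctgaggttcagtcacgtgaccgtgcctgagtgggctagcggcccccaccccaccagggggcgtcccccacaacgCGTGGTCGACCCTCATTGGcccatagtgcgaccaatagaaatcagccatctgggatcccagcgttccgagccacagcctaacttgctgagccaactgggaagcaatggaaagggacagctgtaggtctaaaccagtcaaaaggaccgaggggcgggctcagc
Pdia6: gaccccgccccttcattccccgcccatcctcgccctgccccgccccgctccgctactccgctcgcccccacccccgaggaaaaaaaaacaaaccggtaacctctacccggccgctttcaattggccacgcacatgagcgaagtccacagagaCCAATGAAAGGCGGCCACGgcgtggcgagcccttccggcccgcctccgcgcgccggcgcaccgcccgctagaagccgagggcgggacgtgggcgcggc
Hspe1: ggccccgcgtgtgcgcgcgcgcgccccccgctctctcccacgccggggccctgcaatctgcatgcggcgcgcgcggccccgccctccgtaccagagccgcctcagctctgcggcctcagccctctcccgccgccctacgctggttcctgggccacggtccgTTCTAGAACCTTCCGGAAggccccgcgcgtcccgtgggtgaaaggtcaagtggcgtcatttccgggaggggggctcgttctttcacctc

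No chaperone gene passed the test between smoke and control. In limma's moderated test with Benjamini-Hochberg adjustment, 0 of 34 members had an adjusted p under 0.05, the smallest being 0.325, while 97 of all 13382 genes (0.725%) passed, 94 of them lower in smoke (0.702%) and 3 higher (0.0224%). At an unadjusted p under 0.05 there were 6 members (17.6%), 5 of them lower, beside 10.2% of all genes, of which 4.47% were lower and 5.75% higher. The log2 change was negative for 27 of 34 members (79.4%), against 43.1% of all genes, and its median was -0.19 over members and 0.06 over all genes. By compartment it was negative for 10 of 12 cytosolic genes (median -0.26), 2 of 3 mitochondrial genes (median -0.11), 13 of 15 reticulum genes (median -0.26) and 2 of 4 regulators (median -0.05). The lists themselves had no test.

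**Figure D1:**
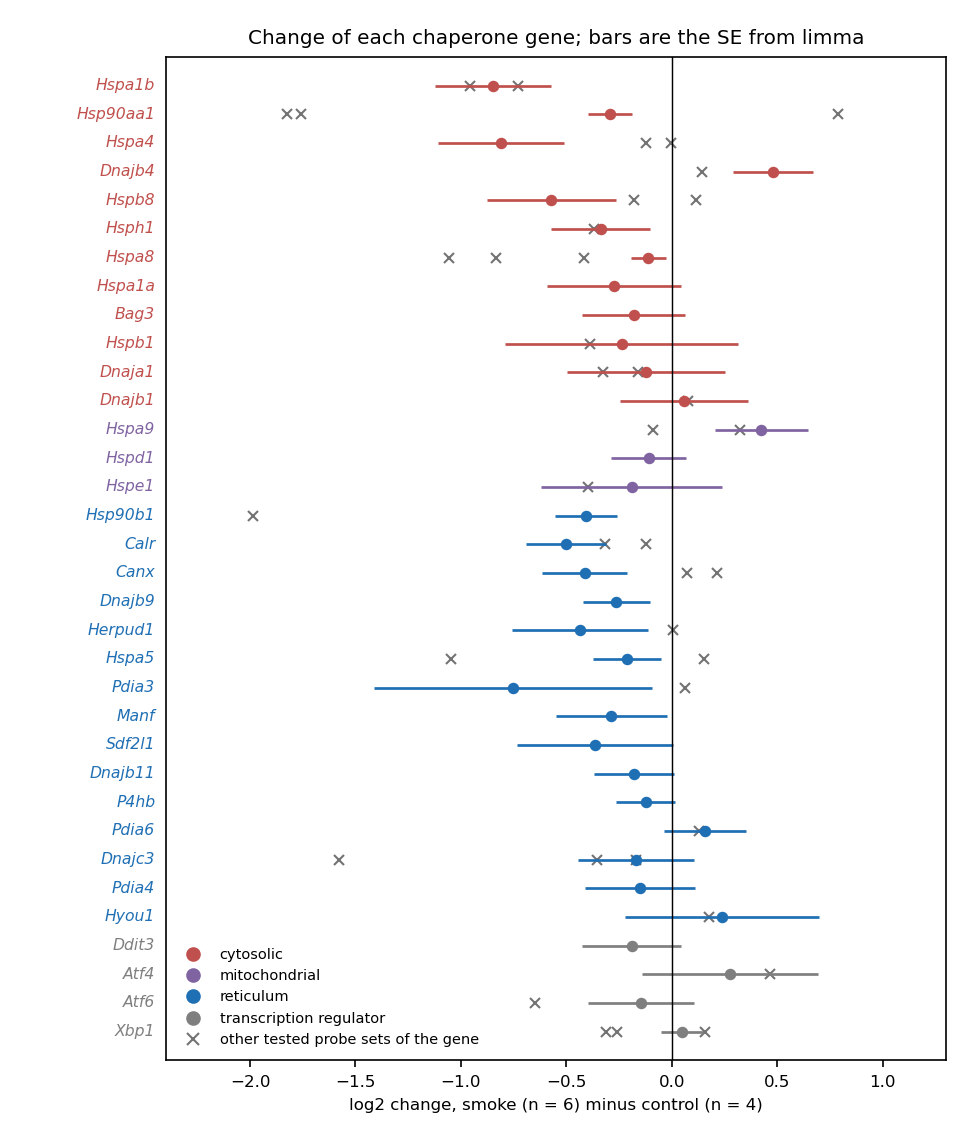
Log2 change of each chaperone gene (smoke minus control, quantile-normalised log2 intensity) with bars for its SE from limma, for 4 control and 6 smoke arrays, coloured by compartment, and crosses for other tested probe sets of the gene. Of 34 points, 27 lie below 0, and those of Hspa1b (-0.85), Hspa4 (-0.81) and Pdia3 (-0.75) lie farthest from it.

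The arrays themselves differed within the smoke group, and these differences touch most of the values that follow. The ratio of the 3' to the 5' probe sets of beta-actin, which is higher where RNA or its copies are shorter, was 9.70, 10.4, 9.28 and 3.96 in control arrays 1 to 4. In smoke arrays 1 to 6 it was 31.6, 29.4, 9.26, 10.3, 2.18 and 2.98, so that smoke 1 and 2 lay above every control array and smoke 5 and 6 below. The same ratio for Gapdh was 4.82 to 5.89 in control arrays. In smoke arrays 1 to 6 it was 4.76, 9.16, 5.94, 3.68, 1.40 and 2.13. By Gapdh, smoke 5 and 6 were again lowest and smoke 2 highest, but smoke 1 and 4 lay below every control. Between the means of smoke 1 and 2 and of smoke 5 and 6, a distance of at least 2-fold was seen in 12 of 34 members (35.3%) and in 28.7% of all genes. The SD over smoke arrays exceeded that over control arrays in 31 members (91.2%) and in 81.4% of all genes, with a median over members of 0.43 in smoke and 0.21 in control. The part of RNA length in these values was not tested beyond fits with arrays left out and with the actin ratio as a covariate. Such fits are given beside a member where they changed its call or turned its sign, and beside some others whose value they moved.

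Markers of the labelled tissue were present throughout. Summed intensities of 7 lung epithelial genes, including the surfactant genes, were 101000 to 112000 in control and 84800 to 121000 in smoke arrays. None of the 7 was at the floor, the lowest value allowed, on any array. Of 5 smooth muscle markers, 4 had a positive change. Acta2 (0.53 ± 0.20) was above every control on all 6 smoke arrays. Actg2 stood at 0.436 ± 0.335, Cnn1 at 0.38 ± 0.63, Tagln at 0.02 ± 0.55 and Myh11 at -0.58 ± 0.60. All 5 plasma cell markers had a positive change: Jchain 0.82 ± 0.55, Sdc1 0.35 ± 0.12, Prdm1 0.30 ± 0.21, Mzb1 0.22 ± 0.22 and Tnfrsf17 0.76. Sdc1, which epithelial cells also express, was likewise above every control on all 6 smoke arrays. Tnfrsf17 was at the floor on 3 arrays and lay under the filter for testing. The lists' summed intensities were 4520 to 8710 in control against 9640 to 10900 in smoke for smooth muscle. For plasma cells they were 4950 to 5800 against 6100 to 9070. These sums mostly follow 2 bright probe sets, those of Acta2 and Sdc1. Cardiac markers (6 genes) summed to 3440 to 7040 in control and 2010 to 9680 in smoke. Their changes had both signs: 4 were negative, with Myh6 lowest at -1.19 ± 0.36. Actc1 (0.31 ± 0.42) and Nppa (0.175 ± 0.285) were positive. Brown fat markers (5 genes) summed to 493 to 2290 and 435 to 902, with Ucp1 at the floor on 4 arrays and Cidea on 3. No marker tested passed in limma, and the part of the cell mix in the chaperone values was not tested.

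Among the cytosolic chaperones, the inducible HSP70 gene Hspa1b had the smallest p. Its values were 11.30, 12.03, 11.87 and 11.15 in control arrays and 11.31, 11.21, 10.93, 10.36, 10.56 and 10.09 in smoke arrays 1 to 6. The groups overlapped through smoke 1 and 2, and the other 4 smoke arrays lay below every control. The change was -0.85 ± 0.27 (± is the SE here and below; 4 control, 6 smoke arrays), a 1.80-fold lower level, with an adjusted p of 0.325 from limma. With the actin ratio as a covariate it was -0.91, with an adjusted p of 0.0292, and without smoke 1 and 2 it was -1.10, with an adjusted p of 0.0724. Hspa1a, its neighbour with a nearly identical coding sequence, differed by -0.27 ± 0.32 in the same fit, with a 95% interval from -0.97 to 0.42, and stood at -0.57 without smoke 1 and 2 and at 0.04 without smoke 5 and 6. Other tested probe sets of Hspa1b gave -0.96 (1427127_x_at) and -0.73 (1427126_at), with smoke 5 the highest smoke array there and smoke 1 the lowest. Because the 2 transcripts are so alike, probe sets assigned to either gene may read both.

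Hsp90aa1 encodes HSP90 alpha, the stress-responsive HSP90 of the cytosol. It stood at 13.24, 13.36, 13.34 and 13.14 in control arrays and at 12.84 at the lowest, 13.03 at the median and 13.07 at the highest in smoke. Every smoke array was below every control array, with a change of -0.29 ± 0.10 and an adjusted p of 0.383 from limma. Groups did not overlap in this way for 2 of 34 members (5.88%), both lower, against 4.09% of all genes in either direction and 2.11% in the lower one. On intensities as deposited, before normalisation, the groups of Hsp90aa1 overlapped. Control 4 read 8165.8 there, and smoke 1 to 3 read 8336.1, 9553.6 and 8371.8.

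Hspa4, an HSP110-type exchange factor that recharges HSP70 with ATP, was at 13.48, 13.49, 13.31 and 13.25 in control lungs. In smoke arrays 1 to 6 it was at 11.77, 12.74, 12.50, 11.82, 13.27 and 13.33. Smoke 5 and 6 thus stood within the control range and the other 4 smoke arrays below it, and the change over all arrays was -0.81 ± 0.30 (limma adjusted p 0.397). Without smoke 5 and 6 it was -1.17 with an adjusted p of 0.0144, and the gene also passed without smoke 1, 2, 5 and 6, where the change was -1.22 with an adjusted p of 0.0049. The other tested probe sets of Hspa4 stood at -0.0018 (1416146_at) and -0.12 (1416147_at). On 1416147_at smoke 1 to 4 (5.51, 7.23, 7.36 and 7.29) were again below every control, the lowest being 7.47. Smoke 5 and 6 (8.89 and 8.77) were above every control there. On 1416146_at only 1 smoke array was below every control.

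The HSP40 genes encode co-chaperones that deliver clients to HSP70, and their differences had both signs, none passing the test. Dnajb4 was at 10.59, 10.78, 10.87 and 10.46 in control arrays and at 10.80, 11.14 and 11.67 (lowest, median, highest) in smoke, with 5 of 6 smoke arrays above every control. Its change of 0.48 ± 0.19 was the largest positive one among members (limma adjusted p 0.428). Its other tested probe set, 1439524_at, stood at 0.14 ± 0.28, with 3 smoke arrays above every control and 2 below. Dnajb1, a partner of HSP70 that is itself heat-inducible, differed by 0.06 ± 0.30 (-0.04 after median centring) and Dnaja1 by -0.12 ± 0.37 (0.04 on values as deposited). Both rested on arrays that moved apart: smoke 1 and 2 were above smoke 5 and 6 by 1.20 for Dnajb1 and by 1.75 for Dnaja1. Without smoke 1 and 2, Dnajb1 was -0.16 and Dnaja1 -0.48, and without smoke 5 and 6 they were 0.44 and 0.39. With the actin ratio as a covariate Dnajb1 was -0.02, and Dnaja1 was 0.19 without smoke 1, 2, 5 and 6. Other tested probe sets of Dnaja1 gave -0.33 ± 0.13 (1416288_at, limma adjusted p 0.444) and -0.16 ± 0.13 (1460179_at). The first of these kept its sign, at -0.35 without smoke 1 and 2 and -0.22 without smoke 5 and 6.

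The small heat shock proteins bind unfolded chains without ATP, and Hspb1 had the widest spread of the cytosolic members. It was at 11.98, 11.19, 11.34 and 12.23 in control arrays and at 10.21, 10.75, 11.25, 10.55, 13.26 and 12.66 in smoke arrays 1 to 6. Smoke 5 and 6 were above every control, smoke 1, 2 and 4 below, and the change of -0.24 ± 0.55 joins these opposite positions. It was 0.25 without smoke 1 and 2, -0.99 without smoke 5 and 6, and -0.08 with the actin ratio as a covariate. Smoke 5 also held the highest sum of cardiac markers (9680), and the part of heart tissue in its Hspb1 value was not tested. Hspb8, which works with the co-chaperone BAG3 in clearing aggregates, differed by -0.57 ± 0.31 (-0.91 without smoke 5 and 6), and Bag3 by -0.18 ± 0.25. The constitutive HSP70 Hspa8 differed by -0.11 ± 0.08, but by 0.14 on values as deposited and 0.06 after median centring. Hsph1, an HSP110-type exchange factor like Hspa4, differed by -0.34 ± 0.23, and by -0.08 without smoke 5 and 6.

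**Figure D2:**
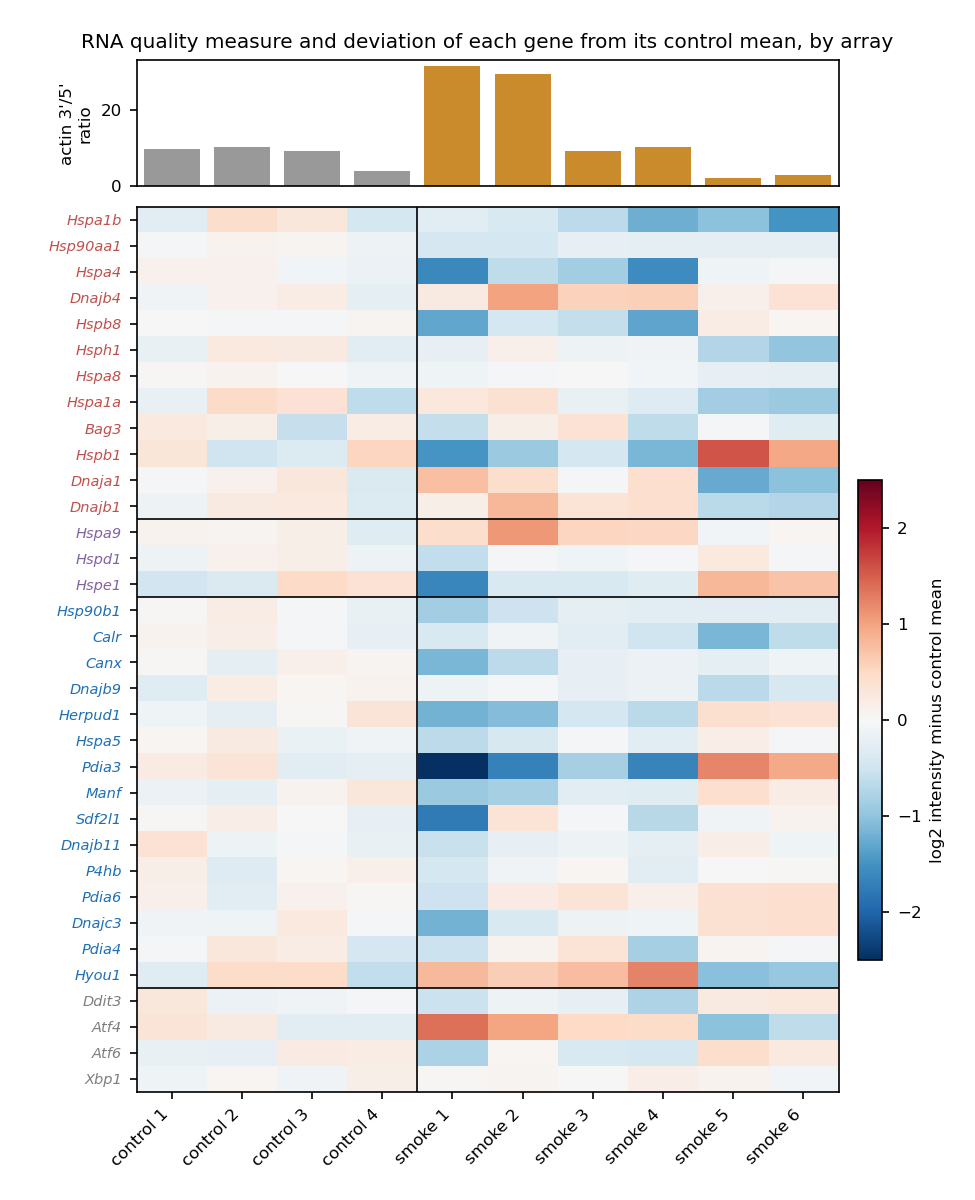
The bars give the actin 3' to 5' ratio of each array. Below them each row is a chaperone gene, each column an array, and the colour is the array's log2 intensity minus the gene's mean over the 4 control arrays. Smoke 1 and 2 and smoke 5 and 6 stand on opposite sides of the control mean for Pdia3, Hspb1 and Herpud1 (lower in smoke 1 and 2) and for Atf4, Dnaja1 and Hyou1 (higher in smoke 1 and 2).

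Mitochondrial chaperones import and fold proteins inside the organelle. Hspa9, the mitochondrial HSP70, was at 10.85, 10.84, 10.91 and 10.47 in control arrays and at 10.69, 11.24 and 11.86 (lowest, median, highest) in smoke. Its change of 0.43 ± 0.22 had an interval from -0.06 to 0.91 and an adjusted p of 0.541. It was 0.26 without smoke 1 and 2 and 0.65 without smoke 5 and 6. On its other tested probe sets Hspa9 stood at 0.32 ± 0.36 (1447728_x_at) and -0.09 ± 0.16 (1418504_at). The chaperonin Hspd1 differed by -0.11 ± 0.18 and its lid Hspe1 by -0.19 ± 0.43. They are the pair that shares the heat shock elements printed above. Hspe1 spanned 9.29 to 11.74 in smoke, with smoke 1 lowest and smoke 5 and 6 highest, while Hspd1 spanned 10.34 to 11.19. Without smoke 1 and 2, Hspe1 was 0.22 and Hspd1 0.0032, and without smoke 5 and 6 they were -0.67 and -0.21.

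Among the reticulum chaperones, Hsp90b1, Calr and Canx had the smallest p. Hsp90b1, the HSP90 of this compartment, was at 13.00, 13.16, 12.93 and 12.78 in control arrays and at 12.10, 12.69 and 12.72 (lowest, median, highest) in smoke. All 6 smoke arrays lay below all controls, with a change of -0.41 ± 0.15 (limma adjusted p 0.392). Without smoke 1 and 2, its 2 lowest arrays, the change was -0.27. On intensities as deposited its groups overlapped, with control 4 at 6609.7 and smoke 2 and 3 at 6758.9 and 6686.

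Calr, the lectin chaperone calreticulin, stood at 12.82, 12.89, 12.69 and 12.52 in control arrays and at 12.35, 12.64, 12.47, 12.22, 11.58 and 12.09 in smoke arrays 1 to 6. Only smoke 2 reached the control range, and the change was -0.50 ± 0.19 (limma adjusted p 0.407). With the actin ratio as a covariate Calr differed by -0.55 with an adjusted p of 0.0305, and without smoke 5 and 6 by -0.31. On its other tested probe sets Calr stood at -0.32 ± 0.16 (1456170_x_at) and -0.12 ± 0.20 (1433806_x_at). Its membrane-bound relative Canx differed by -0.41 ± 0.20, with an interval from -0.85 to 0.03 and the lowest value, 11.86, in smoke 1. Without smoke 1 and 2 Canx stood at -0.17. Its other tested probe sets gave 0.21 (1428935_at) and 0.07 (1422845_at).

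Hspa5, the HSP70 of the reticulum known as BiP and the usual gauge of the unfolded protein response, had overlapping groups. Control arrays read 13.37, 13.55, 13.15 and 13.23, and smoke arrays 12.66, 13.17 and 13.49 (lowest, median, highest). The change was -0.21 ± 0.16, with an interval from -0.56 to 0.14, and it was -0.05 without smoke 1 and 2 and -0.35 without smoke 5 and 6. Its co-chaperones of the HSP40 family differed by -0.26 ± 0.16 (Dnajb9), -0.18 ± 0.19 (Dnajb11) and -0.17 ± 0.28 (Dnajc3), and its exchange factor Hyou1 by 0.24 ± 0.46. Hyou1 stood at 12.76, 12.56, 12.73 and 13.19 in smoke 1 to 4, above every control, and at 10.91 and 11.00 in smoke 5 and 6, below every control. Without smoke 5 and 6 Hyou1 was 0.86, and without smoke 1 and 2 it was 0.0051. Dnajc3 was 0.13 without smoke 1 and 2 and -0.45 without smoke 5 and 6.

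Protein disulfide isomerases form the disulfide bonds of secreted proteins. Pdia3, which works with Calr and Canx, had the widest spread of all members. It stood at 10.46, 10.58, 9.97 and 10.03 in control arrays and at 7.77, 8.57, 9.43, 8.59, 11.48 and 11.21 in smoke arrays 1 to 6. Smoke 1 to 4 were below every control and smoke 5 and 6 above, a distance of -3.18 between smoke 1 and 2 and smoke 5 and 6. The change of -0.75 ± 0.66 therefore had an interval from -2.19 to 0.69, and the fits with arrays left out disagreed. Without smoke 1 and 2 Pdia3 was -0.08 (adjusted p 0.978), without smoke 5 and 6 it was -1.67 (adjusted p 0.0206), and without all 4 it was -1.25 (adjusted p 0.0359). With the actin ratio as a covariate it was -0.57 (adjusted p 0.428). Its other tested probe set, 1445330_at, stood at 0.06. P4hb differed by -0.12 ± 0.14 and Pdia4 by -0.15 ± 0.26, and Pdia6, whose window carries the ER stress response element, by 0.16 ± 0.19.

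The remaining reticulum genes serve disposal and repair. Herpud1, part of the complex that returns misfolded proteins for degradation, differed by -0.44 ± 0.32, with smoke 1 to 4 below every control and smoke 5 and 6 above. Without smoke 5 and 6 Herpud1 was -0.84 and passed (adjusted p 0.0498), and without smoke 1 and 2 it was -0.09 (adjusted p 0.942). Its other tested probe set, 1435626_a_at, stood at 0.004 ± 0.18, with 2 smoke arrays below every control and 2 above. Manf, a secreted factor induced by reticulum stress, differed by -0.29 ± 0.26 (0.0062 without smoke 1 and 2), and Sdf2l1, a BiP partner, by -0.36 ± 0.37. Set against the promoter elements, 5 of the 6 reticulum genes with the ER stress response element had a negative change, with a median of -0.31. The 7 genes without it were all negative, from -0.75 to -0.12, with a median of -0.26.

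Regulators of the unfolded protein response had, on their chosen probe sets, intervals that included 0. Xbp1, whose spliced form drives secretory capacity, was at 12.91, 13.05, 12.92 and 13.16 in control arrays and at 12.95, 13.06 and 13.16 (lowest, median, highest) in smoke. Its change of 0.05 ± 0.10 had an interval from -0.17 to 0.27, the narrowest among the regulators, and its splicing was not measured. Its other tested probe sets gave -0.26 (1420886_a_at), -0.31 (1420011_s_at) and 0.16 (1420012_at). Ddit3, the stress factor CHOP, differed by -0.19 ± 0.24 and the sensor Atf6 by -0.15 ± 0.25. Atf4 differed by 0.28 ± 0.42, with smoke 1 and 2 above smoke 5 and 6 by 2.02. It was -0.18 without smoke 1 and 2 and 0.83 without smoke 5 and 6 (adjusted p 0.0672). Its other tested probe set, 1448135_at, stood at 0.47 ± 0.16, with an interval from 0.12 to 0.82 (adjusted p 0.367) and 5 of 6 smoke arrays above every control.

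**Figure D3:**
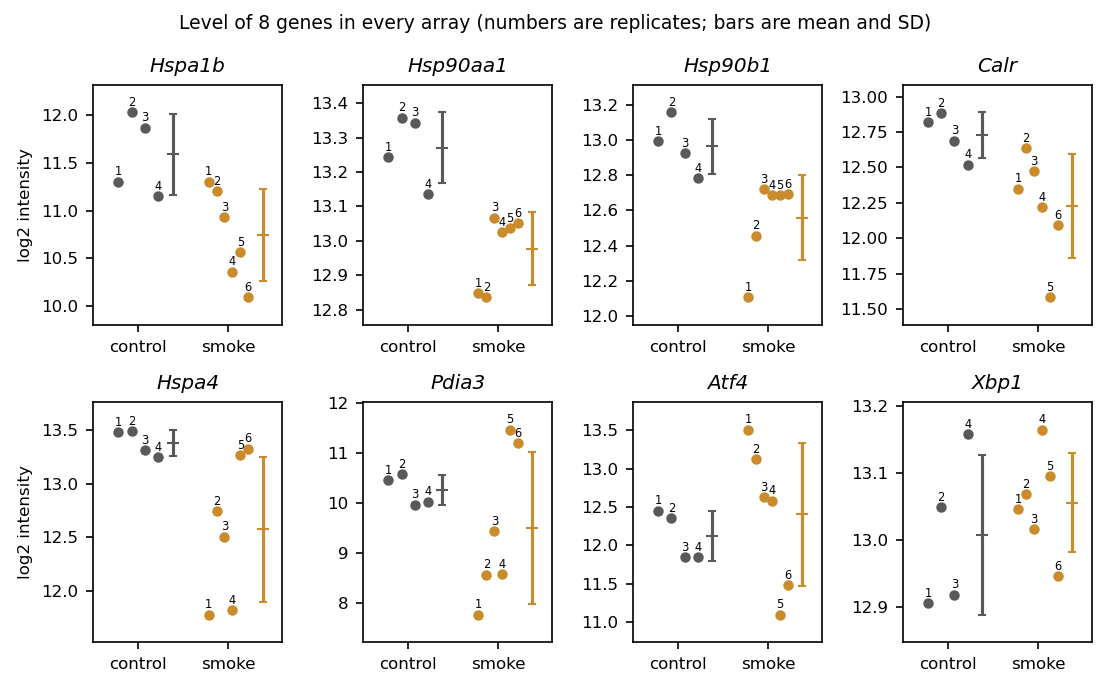
Log2 intensity of 8 chaperone and regulator genes on each array, numbered by replicate, with the mean and SD of each group beside the points (4 control, 6 smoke arrays). On these quantile-normalised values Hsp90aa1 and Hsp90b1 separate the groups, and Hspa1b, Hspa4 and Calr overlap through 1 or 2 smoke arrays. Pdia3 and Atf4 spread more widely in smoke than in control, and Xbp1 stays between 12.91 and 13.16.

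Several genes are read by more than 1 probe set, and these did not always match. Members had 85 probe sets with 1 symbol, 74 of them tested, and 24 genes had more than 1 tested. Of the 40 tested probe sets beyond those chosen, 10 had the opposite sign (in 8 genes) and 24 a lower change than the chosen one. None passed, the smallest adjusted p being 0.163. An unadjusted p under 0.05 was found for 11 of the 40 (27.5%), several of them reading the same gene, and for 10% of all 27022 probe sets tested.

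For Hspa8 the chosen probe set differed by -0.11, whereas 1420622_a_at differed by -1.06 (adjusted p 0.163) and 1420623_x_at by -0.83 (adjusted p 0.230). Both of these lay below every control on all 6 smoke arrays. They passed with the actin ratio as a covariate (adjusted p 0.00566 and 0.0151) and without smoke 5 and 6 (0.00747 and 0.0166), and did not without smoke 1 and 2 (-0.73 and -0.56, adjusted p 0.102 and 0.136). For Hsp90b1, 1438040_a_at differed by -1.99 (adjusted p 0.185), with control arrays at 10.40, 11.08, 11.00 and 10.46 and smoke arrays at 7.47, 7.09, 9.24, 9.76, 9.40 and 9.53. Smoke 1 and 2 were lowest, yet without them the change was -1.25 with an adjusted p of 0.018, and with the actin ratio as a covariate it was -1.87 (adjusted p 0.0251). For Hspa5, 1427464_s_at differed by -1.05 (adjusted p 0.324), and by -0.67 without smoke 1 and 2 (0.267) and -1.37 without smoke 5 and 6 (0.0347), while the chosen set stood at -0.21 and 1447824_x_at at 0.15. For Dnajc3, 1449372_at stood at -1.58 (adjusted p 0.346) against -0.17 for the chosen set. It was -0.84 without smoke 1 and 2 (adjusted p 0.136) and -1.44 with the actin ratio as a covariate (adjusted p 0.0257). For Hsp90aa1, 1437497_a_at differed by -1.82 and 1426645_at by -1.76, and 1433251_at by 0.79. Both lower sets had their lowest values on smoke 1 and 2, the arrays with the highest actin ratios. Without these arrays they stood at -0.83 (adjusted p 0.053) and -0.86 (adjusted p 0.357), and with the actin ratio as a covariate at -1.66 and -1.58 (adjusted p 0.078 and 0.0689). Without smoke 5 and 6 they stood at -2.28 and -2.44 (adjusted p 0.0915 and 0.0509). Without smoke 1, 2, 5 and 6 they stood at -0.75 (adjusted p 0.0653) and -1.32 (adjusted p 0.047), so that 1426645_at passed there.

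**Figure D4:**
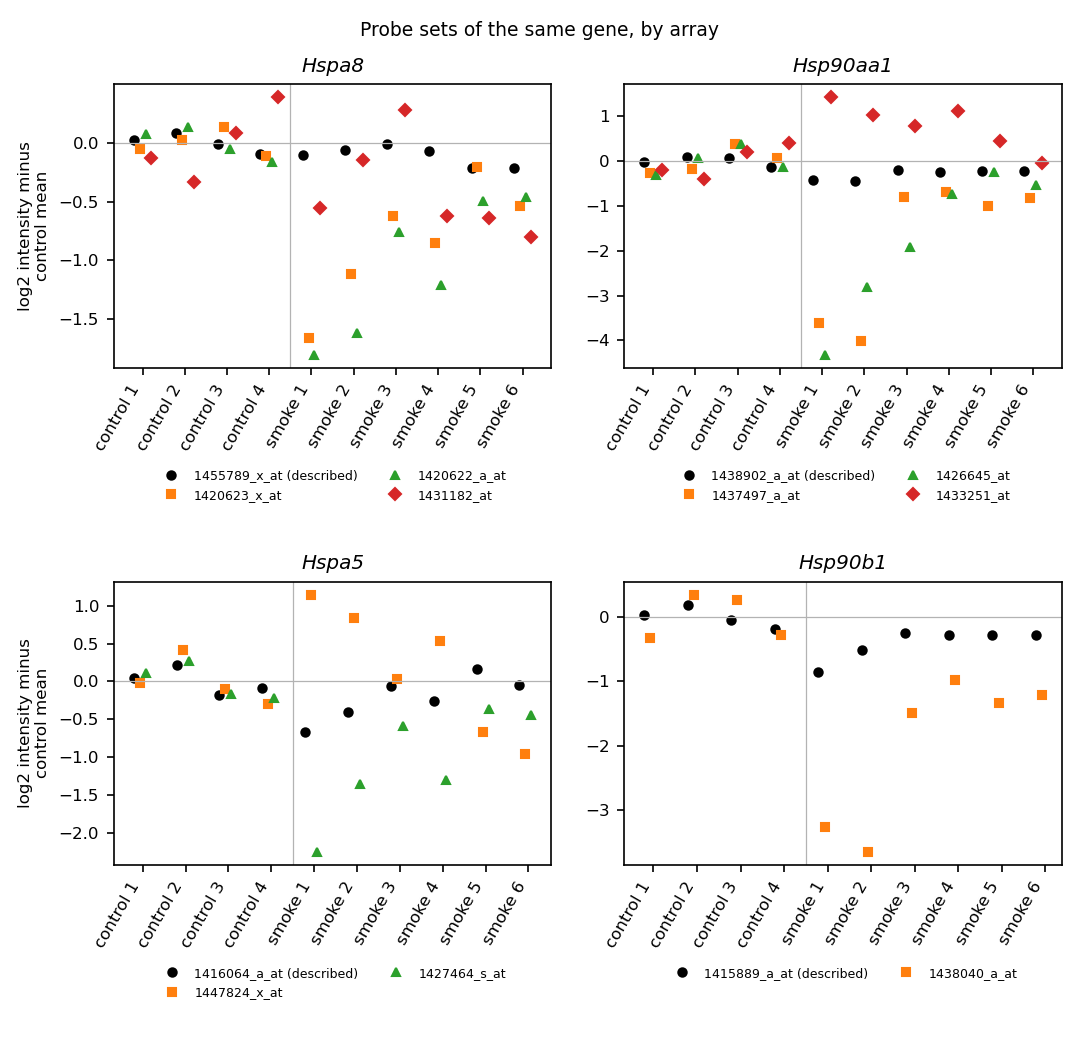
Log2 intensity of each tested probe set minus its mean over the 4 control arrays, for Hspa8, Hsp90aa1, Hspa5 and Hsp90b1, by array (the black circles are the chosen probe set). Other probe sets of the same gene reach -1.06 (Hspa8), -1.82 (Hsp90aa1), -1.05 (Hspa5) and -1.99 (Hsp90b1) as smoke minus control changes, while the chosen ones stay between -0.41 and -0.11.

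Related genes of the same pathways, 92 listed beside the members, were read from the same fit. Of 91 measured, 0 passed, 48 had a negative and 43 a positive change, and the median was -0.03. At an unadjusted p under 0.05 there were 4 (4.4%), against 10.2% of all genes, and 4 did not overlap between groups (4.4%), against 4.09% of all genes. The other cytosolic chaperones included the HSP40 genes Dnajb6, at -0.42 ± 0.17, and Dnaja2, at -0.56 ± 0.25, each below every control on all 6 smoke arrays (-0.22 for both without smoke 1 and 2), and the HSP90 adaptor Cdc37, at -0.50 ± 0.23. In mitochondria, the protease subunit Clpx differed by -0.95 ± 0.47 (-0.47 without smoke 1 and 2) and the exchange factors Grpel1 and Grpel2 by -0.39 ± 0.19 and -0.15 ± 0.15. In the reticulum, Dnajc1 differed by -0.81 ± 0.33 and the collagen-folding isomerase Fkbp14 by -0.45 ± 0.17, whereas the disulfide reductase Dnajc10 differed by 0.29 ± 0.14 and was higher on all 6 smoke arrays. Among stress signalling genes, Chac1, a target of ATF4 and CHOP, differed by 0.46 ± 0.28, the ATF6 protease Mbtps2 by -0.27 ± 0.18 and Creb3l1 by 0.45 ± 0.35. Over these lists the median was -0.16 for 38 other cytosolic genes, -0.06 for 8 mitochondrial, 0.06 for 30 reticulum and -0.03 for 15 signalling genes.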

How the data were processed

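Total RNA of whole lung, 1 mouse per array, was amplified and labelled as cRNA, per the labels' protocols. The authors deposited 1 linear intensity per probe set and array. Which program summarised the probes is not given in the sources used here. Each array's trimmed mean (2% at each end) lay between 499.8 and 499.9, and the number of arrays limits the precision. From these values, the log2 was taken (1 zero took the table's lowest positive value), arrays were quantile normalised, and values under the 10th percentile (15.8) were set to it. Of 45037 probe sets other than 64 controls, the upper 60% by mean (27022) were tested with limma 3.58.1 in R 4.3.3 (eBayes with trend, two-sided, Benjamini-Hochberg over probe sets, threshold 0.05). The annotation gave 1 symbol to 34945, several to 932 and none to 9160. Array pairs correlated at 0.777 to 0.978 and 0 were identical. The code was tested on simulated data. Plots used Python 3.11.15 and matplotlib 3.10.9.

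Members and lists were chosen with earlier results of these data known. All members are given; of related genes, those that passed and the 3 with the smallest p in each list. Alternatives covered scaling, filter, floor, variance trend, weights, replicate number, arrays left out, the actin ratio, choice of probe set and the design text's rule of fold and pairwise counts, run as 16 of 24 pairs.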

Additional observations from a re-analysis of the deposited data

Results flagged for a closer look

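In 4 of 68 sets of a member and a group, an array stood apart by Dixon's criterion, which chance meets in about 1 of 20. Bag3 was 10.03 in control 3, where the nearest control was 10.74 and the farthest 10.85. Hspa9 was 10.47 in control 4, the array with the lowest actin ratio of the controls, and its nearest control was 10.84. Dnajc3 was 11.73 in control 3, above a nearest value of 11.44. Pdia6 was 10.82 in smoke 1, below a nearest value of 11.45, and smoke 1 had the highest actin ratio, 31.6. The cause of these values was not tested.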

How the results depend on the processing

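Under 26 alternatives, 21 of 34 members kept their direction and 13 did not, and 6 passed under at least 1. They passed with the replicate block, without smoke 5 and 6, with the actin covariate or without smoke 1, 2, 5 and 6. Of all genes, 5.69%, 5.62%, 2.77% and 4.1% passed in these settings, against 0.725% in the main fit. The medians of cytosolic and reticulum members stayed negative throughout, but their size moved. For reticulum members it was -0.26 in the main fit, -0.08 without smoke 1 and 2, and -0.35 without smoke 5 and 6. For cytosolic members it was -0.26, -0.32 and -0.13 in the same fits. With each array left out in turn, 0 members passed, while 58 to 102 of all genes were lower and 1 to 7 higher. Over these fits Dnaja1 ran from -0.30 to 0.11, Dnajb1 from -0.10 to 0.22, Dnajc3 from -0.29 to 0.033, Hspb1 from -0.60 to 0.0095 and Hspe1 from -0.39 to 0.10. The 3 genes higher in all became 8 on values as deposited, 5 with median centring, 7 with no filter, 10 with the upper 40%, 5 with the floor at the 25th percentile, 26 with array weights, 10 without smoke 1 and 2, and 14 with the mean of all probe sets.

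Without smoke 5 and 6, 330 genes were lower and 422 higher, with 3 members lower (Hspa4, Herpud1, Pdia3) and 1 related gene higher (Cct3). With the actin covariate, 220 were lower and 151 higher, with 2 members lower (Hspa1b, Calr). Without smoke 1, 2, 5 and 6, chosen after seeing the data, 351 were lower and 193 higher, with 2 members (Hspa4, Pdia3) and 1 related gene (Clpx) lower. Under the design text's rule 297 were lower and 181 higher, with 1 member lower (Hspa1b).

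Signs turned as follows. On values as deposited Hspa8 was 0.14 and Dnaja1 0.042, and with median centring Hspa8 was 0.060 and Dnajb1 -0.039. With array weights Hspb1 was 0.10, Dnajb1 -0.069, Hspe1 0.057, Dnajc3 0.034, Pdia4 0.0014 and Atf4 -0.0029. Without smoke 1 and 2 Hspb1 was 0.25, Dnajb1 -0.16, Hspd1 0.0032, Hspe1 0.22, Manf 0.0062, Dnajc3 0.13 and Atf4 -0.18. Without smoke 5 and 6 Hspa1a was 0.036 and Dnaja1 0.39. Dnajb1 was -0.017 with the actin covariate and Dnaja1 0.19 without smoke 1, 2, 5 and 6. Without probe sets of the _x_at and _s_at kinds Canx was 0.21 and Xbp1 -0.26, and with the mean of all probe sets Xbp1 was -0.092 and Dnajc10 -0.045. The cause was not tested.

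Replicate numbers did not pair the arrays: deviations of same-numbered arrays correlated at -0.068, 0.171, -0.0605 and -0.0504, and 0 of 4 controls correlated best with their own number. The replicate block, which uses smoke 1 to 4 only, gave 341 genes lower and 421 higher, 3 members lower (Hspa4, Herpud1, Pdia3) and 1 higher (Atf4), and 1 related gene lower (Clpx) and 2 higher (Unc45a, Cryab). Under it Hspa1a was 0.036 and Dnaja1 0.39. Precision is limited by the 4 and 6 arrays, and no detection calls were used.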
